A study of Bos taurus with 16 samples.

Results

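The effect of maternal diet was measured as 1 value per calf, the mean of the log2 CPM (counts scaled to the size of the library, on a log2 scale) of its round and its sirloin library, so all 16 libraries of the series entered the comparison and 8 calves were compared, 4 in each diet. RNA was sequenced from the round (hind leg) and sirloin (loin) muscles of newborn male Hanwoo calves, a Korean beef breed, each born to a different cow and sampled right after birth without colostrum. The control cows received 100% of their requirement, and the treated cows received 150% from mid to late pregnancy. Each diet therefore holds 4 animals, and both libraries of an animal share its genotype, dam and sampling. The labels number the calves of each diet 1 to 4, and values are given in the order control 1 to 4, then treated 1 to 4. The same number in the other diet does not mark a related calf.

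Skeletal muscle fibres form before birth, and in late gestation they grow and take on their metabolic and contractile type. Muscle cells answer load, calcium and nutrient signals first through immediate early factors such as the AP-1 and EGR families, and then through slower regulators such as the coactivator PPARGC1A, the calcineurin and NFAT pathway and the actin-dependent factors SRF and YAP. A mean over both muscles of a calf gives weight to what they share.

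Total counts per calf ranged from 92.22 to 144.6 M, with means of 111.3 M for control and 110.8 M for treated calves (two-sided exact permutation test over 35 splits, p = 0.914, the smallest p this design allows being 0.0286). The 10 skeletal muscle markers, among them ACTA1, CKM and TTN, summed to 68075 to 104151 CPM in control against 65967 to 82248 CPM in treated calves. TMM scaling factors, which correct for library composition, were 0.885 to 1.06 in control against 1.03 to 1.08 in treated calves, so they moved with diet apart from control 2, and with RLE or upper-quartile factors in their place the same 2 genes passed the adjusted threshold. Control 2 and treated 1 lay apart from the others on the first principal component of the calf averages, at 72.1 and 54.0, with the other calves between -47.6 and -6.21. Markers of fibroblasts and tendon were also highest in control 2.

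Averaged over both muscles, 2 of 15638 genes tested differed between the diets at an adjusted p under 0.05 (limma-trend, Benjamini-Hochberg), which is 0.0128% of them. FOSL1 fell (1 lower gene, 0.00639%) and the pseudogene LOC781412 rose (1 higher gene, 0.00639%) in treated calves. At an unadjusted p under 0.05 there were 503 genes (3.22%), 306 of them lower (1.96%) and 197 higher (1.26%) in treated calves. In simulated counts with no gene changed, 4.87% passed the same test at that threshold, so the 503 genes are no excess over chance. The split into lower and higher genes depended on the scale. With log2(TPM + 0.5), where the median of all genes lay 0.112 above 0, 141 genes were lower and 497 higher. Without control 2 the split was 444 lower and 476 higher. With every gene that had at least 1 count it was 393 and 389.

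FOSL1 (gene ID 531389) encodes FRA1, a subunit of the transcription factor AP-1 that is induced within minutes to hours of a stimulus. Its calf averages were 1.98, 0.53, 1.10 and 1.08 log2 CPM in control calves against -2.37, -2.57, -2.20 and -2.41 in treated calves. Every control calf lay far above every treated calf in these averages. The treated libraries ranged more widely, from -2.04 to 0.073 log2 CPM in round and from -4.81 to -3.10 in sirloin muscle, where treated 1 was the highest in the first and the lowest in the second. The difference was -3.56 ± 0.37 (SE; adjusted p = 0.0129, limma-trend), lower in all 4 treated calves. In round muscle the deposited counts were 517, 687, 929 and 333 in control against 63, 10, 48 and 14 in treated libraries. In sirloin muscle they were 54, 15, 10 and 25 against 0, 4, 2 and 5. The diets did not overlap in either muscle, and the level was far lower in sirloin than in round muscle, so the sirloin value rests on few reads. The difference was -4.56 in round and -2.56 in sirloin muscle, and the gap between the muscles had an unadjusted p of 0.310.

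LOC781412 (gene ID 781412) is annotated as a pseudogene, and reads of a near-identical copy could be counted for it. Control libraries held between 1 and 4 reads each, and treated libraries between 69 and 404. LOC781412 therefore passed the filter for expressed genes through treated libraries alone, and its difference could only come out higher. The calf averages were -3.53, -4.01, -3.52 and -3.69 log2 CPM in control against 2.18, 0.78, 0.74 and 0.75 in treated calves. Each treated calf stood above every control calf in both muscles, and treated 1 was the highest. The difference was 4.80 ± 0.43 (SE; adjusted p = 0.00538), with 5.11 in round and 4.49 in sirloin muscle. As control libraries held so few reads, the fitted value depends on the prior count of 2, and for LOC781412 the log2 difference was 5.44 with a prior count of 0.5. With treated 1 left out it was 4.44, and it passed the adjusted threshold whichever calf was left out by limma-trend. FOSL1 passed only when control 2 was the calf left out, with adjusted p-values from 0.00911 to 0.0938 over the 8 omissions. edgeR on counts summed over the muscles of a calf called LOC781412 alone (FOSL1 adjusted p = 0.0784), whereas DESeq2 on the same sums called 38 genes, 27 lower and 11 higher. When the libraries were fitted by voom with the calf as a random effect, neither gene passed (adjusted p = 0.126 for LOC781412 and 0.999 for FOSL1).

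**Figure D1:**
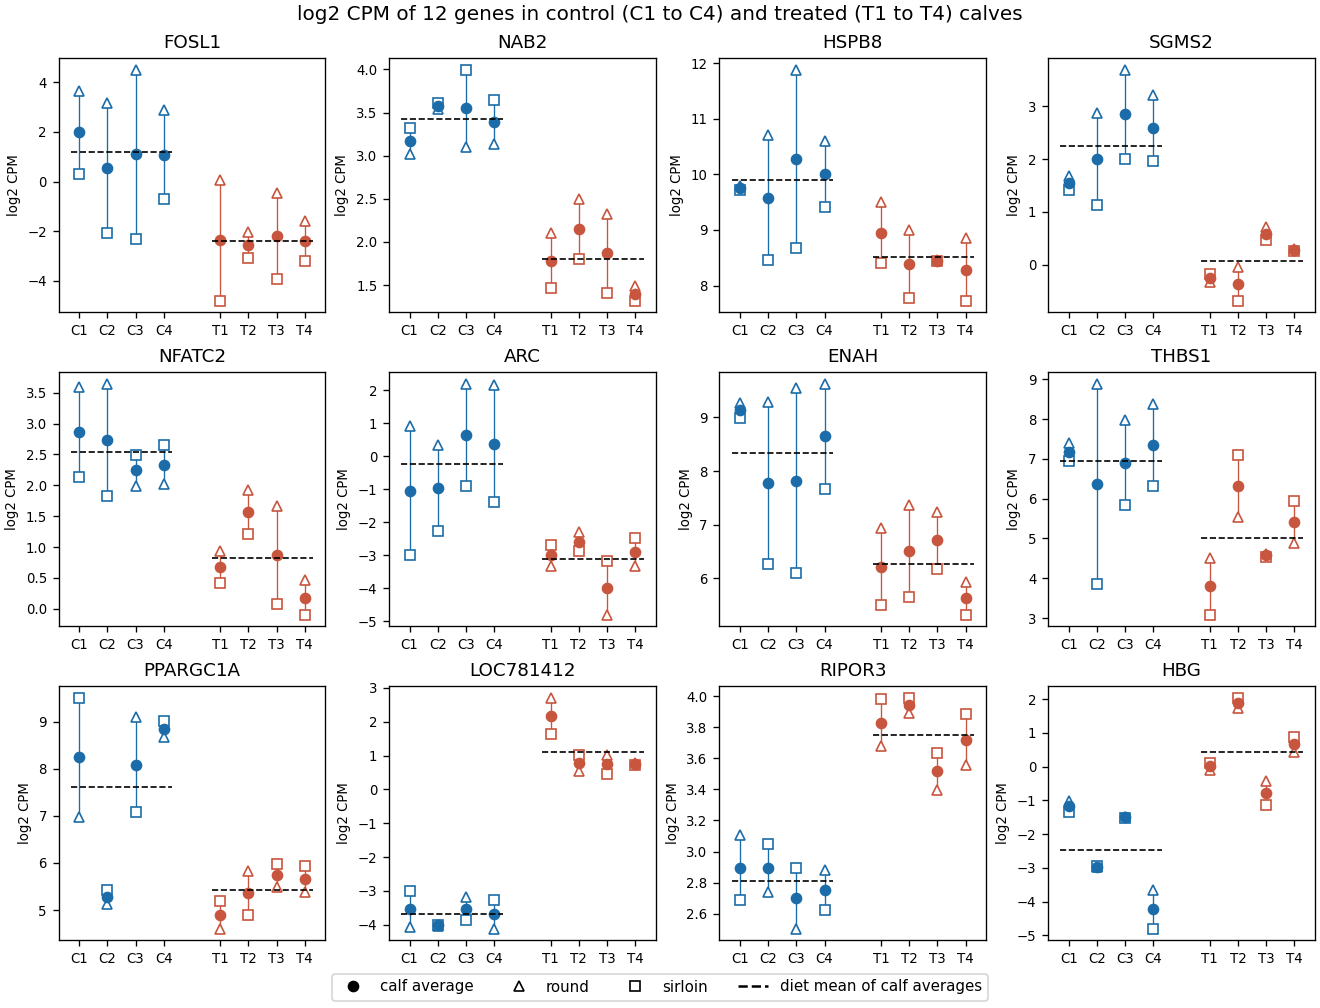
log2 CPM (vertical axis of each panel) of 12 genes in control calves C1 to C4 (blue) and treated calves T1 to T4 (red), with filled circles for the mean of both muscles, triangles for round, squares for sirloin and dashed lines for the mean of each diet. For FOSL1 the control averages lie between 0.53 and 1.98 and the treated averages between -2.57 and -2.20, and for PPARGC1A control 2 (5.28) lies among the treated calves.

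Genes that moved the same way in both muscles were counted as those whose 4 treated libraries lay wholly on one side of the 4 control libraries in round and again in sirloin muscle. There were 31 such genes (0.198% of those tested), 16 lower (0.102%) and 15 higher (0.0959%) in treated calves, and in 0 genes did the muscles separate in opposite directions. In round muscle by itself 345 of the 15638 genes tested did not overlap, in sirloin muscle by itself 300, and in the calf averages 312 (2%). With 4 calves a side, a share of 0.0286 would separate in a single set of values without any diet effect. The counts for round muscle, for sirloin muscle and for the calf averages do not exceed that share. It does not apply to the 31 genes, which had to separate in both muscles. Their share without any diet effect depends on how a calf's muscles vary together and was not worked out. Since both muscles came from the same calves, separation in the second muscle is not an independent repeat of that in the first.

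**Figure D2:**
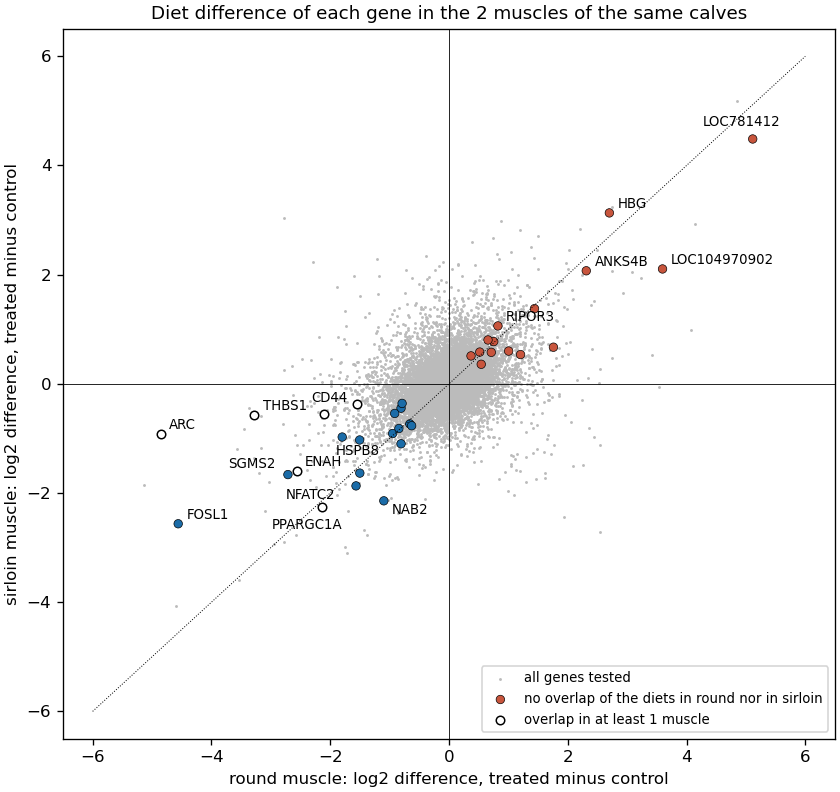
Treated minus control log2 difference of 15638 genes in round (horizontal axis) and sirloin muscle (vertical axis), with filled points for genes whose diets do not overlap in either muscle (blue lower, red higher in treated) and open points for 6 other named genes. FOSL1 lies at -4.56 and -2.56 and LOC781412 at 5.11 and 4.49. ARC lies at -4.86 in round but -0.92 in sirloin muscle, where it had few reads. The dotted line marks equal differences.

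Of the 16 lower genes, NAB2, a corepressor that EGR factors induce and that then restrains them, had calf averages of 3.17, 3.58, 3.55 and 3.39 log2 CPM in control against 1.78, 2.15, 1.87 and 1.40 in treated calves. The diets stood well apart and were tight within each group. The difference was -1.62 ± 0.23 (SE), with an adjusted p of 0.136, and NAB2 was the only gene called by voom with the calf as a random effect (adjusted p = 0.0268). The difference was -1.10 in round and -2.14 in sirloin muscle. The gap between the muscles had an unadjusted p of 0.00291 and an adjusted p of 0.868.

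NFATC2, a transcription factor that calcineurin sends to the nucleus, averaged 2.87, 2.74, 2.24 and 2.33 log2 CPM in control against 0.68, 1.57, 0.87 and 0.18 in treated calves. The difference was -1.72 ± 0.32 (SE; adjusted p = 0.501), and the muscles gave similar values of -1.57 and -1.87. HOMER1, a scaffold protein of calcium signalling complexes, ran from 6.67 to 7.15 in control and from 5.31 to 6.33 in treated calves. KLF5, a Kruppel-like transcription factor, ran from 3.24 to 4.35 and from 1.82 to 2.85. The zinc finger protein ZNF462 was also lower, by 0.83 on average. None of these 4 passed the adjusted threshold. Separation of the diets in both muscles was the rule that picked them, so it adds no support.

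HSPB8, a small heat shock protein that works with BAG3 in the clearance of damaged muscle proteins, averaged 9.75, 9.58, 10.28 and 10.01 log2 CPM in control against 8.95, 8.39, 8.45 and 8.29 in treated calves. It was the most abundant of the lower genes named here that separated in both muscles. The difference was -1.39 ± 0.22 (SE; adjusted p = 0.253), -1.80 in round and -0.98 in sirloin muscle. SGMS2, which makes sphingomyelin at the plasma membrane, averaged 1.55, 2.00, 2.85 and 2.59 in control against -0.25, -0.37, 0.59 and 0.28 in treated calves. Its difference was -2.19 ± 0.36 (SE; adjusted p = 0.253), and -2.71 and -1.66 in round and sirloin muscle.

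STX7, a SNARE protein of late endosomes, was even within the diets, at 6.03, 5.98, 5.93 and 6.06 log2 CPM in control against 5.33, 5.48, 5.15 and 5.25 in treated calves, a difference of -0.70 ± 0.15 (SE; adjusted p = 0.814). PPP2R3A, a regulatory subunit of protein phosphatase 2A, differed by -0.95 ± 0.19 (SE; adjusted p = 0.639). PKIA, an inhibitor of protein kinase A, differed by -0.70. CAB39, a scaffold of the LKB1 kinase that acts upstream of AMPK, differed by -0.63, and the splicing factor kinase SRPK2 by -0.73. REP15, a partner of a Rab GTPase, differed by -1.57 at a low level, and MYADM by -0.57. RGS4, a regulator of G protein signalling that falls outside the naming rule and completes the 16, differed by -1.27.

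The higher genes were mostly of low level or small difference. RIPOR3 averaged 2.90, 2.90, 2.70 and 2.75 log2 CPM in control against 3.83, 3.94, 3.52 and 3.72 in treated calves. This protein-coding gene was even within the diets, with means of 7.05 CPM in control against 12.5 CPM in treated round muscle, and of 7.04 and 14.7 CPM in sirloin muscle. Its difference was 0.94 ± 0.19 (SE; adjusted p = 0.591). The long noncoding RNA LOC104970902 averaged 1.15, 0.57, 0.07 and 0.53 in control against 2.59, 5.44, 2.61 and 3.09 in treated calves. Treated 2 was the highest by far, and without that calf the difference was 2.18 in place of 2.85. ANKS4B, known from the brush border of the gut, was near the limit of detection with at most 0.96 CPM in any library, and differed by 2.19 ± 0.53 (SE).

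XPC, which recognises damaged DNA for excision repair, averaged 4.52, 4.55, 4.41 and 3.87 log2 CPM in control against 5.17, 4.86, 4.97 and 4.93 in treated calves, a difference of 0.64 ± 0.20 (SE). The proteoglycan gene SPOCK1 averaged 1.38, 0.85, 1.25 and 1.40 in control against 1.87, 1.93, 1.92 and 2.21 in treated calves. The difference of SPOCK1 was nearly the same in both muscles, at 0.75 and 0.78. RETREG3, a receptor for the autophagy of endoplasmic reticulum, differed by 0.55, EEPD1 by 0.80, the transcriptional cofactor SSBP3 by 0.45 and C18H19orf18 by 0.73. ASB9, an adaptor of a ubiquitin ligase, differed by 1.21 at a very low level. The protein-coding LOC539166 and LOC112444593 differed by 0.44 and 0.87, and the snoRNA gene LOC112448611 by 1.41. The counting of snoRNA and LOC genes may include reads of similar copies, and none of these genes passed the adjusted threshold.

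**Figure D3:**
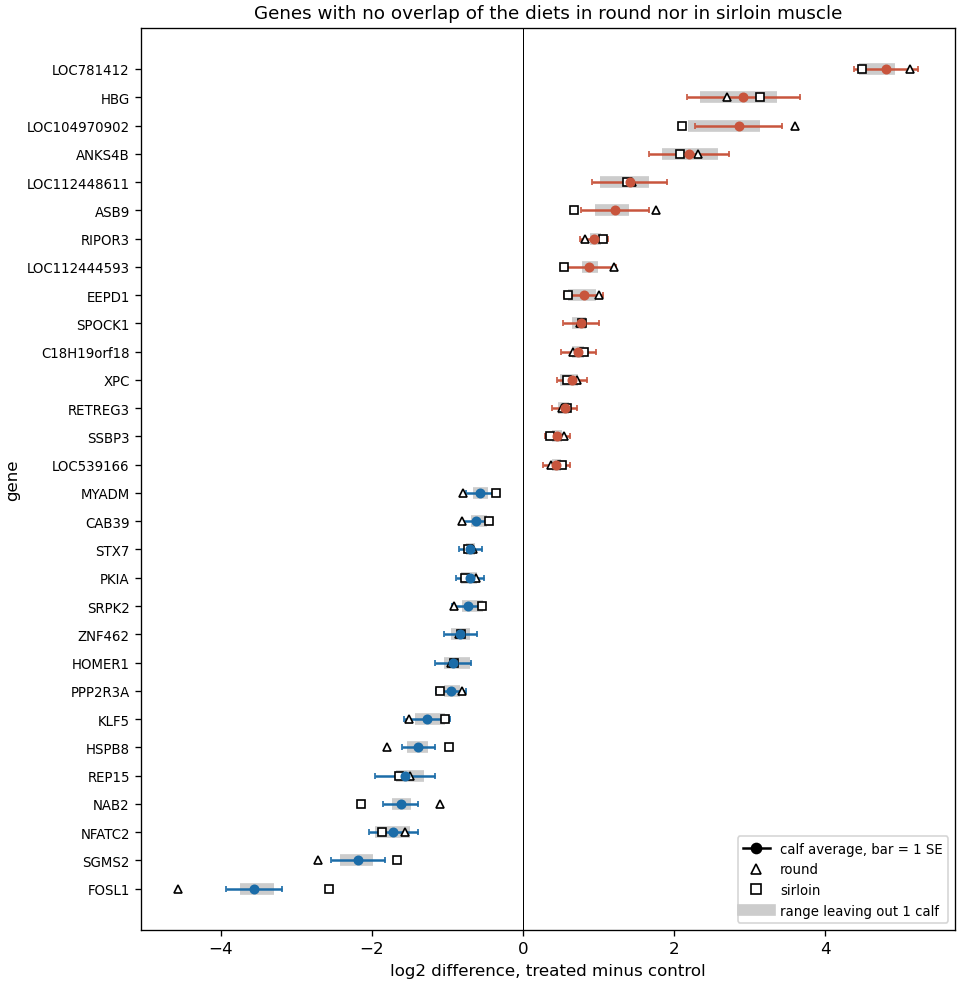
Treated minus control log2 difference (horizontal axis) of the 30 named genes whose diets do not overlap in either muscle, with circles and 1 SE bars for the calf averages, triangles for round, squares for sirloin muscle and grey bands for the range when 1 calf is left out. The values run from -3.56 for FOSL1 to 4.80 for LOC781412, and the grey bands of HBG (2.34 to 3.37) and LOC104970902 (2.18 to 3.13) are the widest.

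Several genes were far apart in round muscle and close in sirloin muscle, and their averages hide that. ARC, an activity-regulated immediate early gene, averaged -1.04, -0.96, 0.65 and 0.39 log2 CPM in control against -3.01, -2.59, -3.99 and -2.91 in treated calves. Its difference was -2.89 ± 0.53 (SE; adjusted p = 0.447), made of -4.86 in round and -0.92 in sirloin muscle. The gap between the muscles had an unadjusted p of 3.46e-05 and an adjusted p of 0.271. In sirloin muscle the counts of ARC were only 4, 13, 30 and 15 in control against 6, 5, 5 and 10 in treated libraries. At that level a fall as large as in round muscle could not have shown. ARC passed the filter for expressed genes through control libraries alone. THBS1, the matrix protein thrombospondin 1, fell by 3.28 in round muscle (adjusted p = 0.0178 in that muscle alone) and differed by -0.58 in sirloin muscle. Its averages were 7.18, 6.37, 6.90 and 7.35 in control against 3.80, 6.31, 4.57 and 5.41 in treated calves, with treated 2 beside the lowest control calf. Over all genes, 0 (0%) showed a diet difference that differed between the muscles at an adjusted p under 0.05 by limma-trend, and 835 (5.34%) did so at an unadjusted p under 0.05. With a prior count of 0.5 in place of 2, 1 gene passed.

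PPARGC1A, the coactivator that drives mitochondrial gene expression, had a large mean difference but did not separate the diets. Its calf averages were 8.24, 5.28, 8.09 and 8.85 log2 CPM in control against 4.90, 5.36, 5.74 and 5.66 in treated calves. Control 2 lay within the treated range in both muscles, and the other control calves were all above it. The difference was -2.20 ± 0.64 (SE; unadjusted p = 0.00573), with -2.14 in round and -2.26 in sirloin muscle. Without control 2 it was -2.97 with an adjusted p of 0.00911. That calf also had the highest sums of matrix and tendon markers, at 6601 and 213 CPM, and whether this bears on PPARGC1A was not tested. The pseudogene LOC101904275 held 281 and 417 reads in round and 285 and 332 reads in sirloin libraries of control 2 and 4, and 2 to 9 reads in each other library, so its difference of -2.71 ± 1.22 (SE) rests on those calves.

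Of 21 coactivators and partners tested, 1 was lower at an unadjusted p under 0.05, PPARGC1A itself, and the list median was -0.19 beside 0.0067 over all genes. Of 80 nuclear-encoded subunits of the respiratory chain, 0 passed an unadjusted p under 0.05. Their median was -0.086, with 62 below 0, and it changed sign to 0.060 on the log2(TPM + 0.5) scale. By muscle it was 0.024 in round and -0.21 in sirloin muscle. The ATP synthase subunits ATP5F1A and ATP5F1B, the most abundant members, differed by -0.29 and -0.14. Of 24 fatty acid oxidation genes, 0 passed, with a median of -0.015 that was 0.14 on the TPM scale and 0.00873 with upper-quartile scaling. The median of these genes was 0.19 in round and -0.24 in sirloin muscle. Their most abundant members were PDK4, which restrains glucose oxidation, at -0.17, and the dehydrogenase ACADVL at -0.15.

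Of 28 immediate early genes tested, FOSL1, ARC and JUND were lower at an unadjusted p under 0.05 and 0 were higher. These were 10.7% of the list, against 1.96% lower over all genes. JUND, another AP-1 subunit, averaged 7.65, 5.60, 7.94 and 7.46 log2 CPM in control against 4.89, 5.75, 6.52 and 6.57 in treated calves, so control 2 lay below 3 of the treated calves. The list median was -0.25, with -0.60 in round and 0.012 in sirloin muscle. The 5 EGR factors and NAB corepressors tested were all below 0, from -1.62 for NAB2 to -0.37, with a median of -0.87, and NAB2 alone passed an unadjusted p under 0.05.

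The actin regulators and targets of SRF or YAP had the most members past the unadjusted threshold. Of 33 tested, 10 were lower and 0 higher, 30.3% against 1.96% lower over all genes, and 28 were below 0. The list median was -0.43, with -0.64 in round and -0.35 in sirloin muscle. ENAH, which extends actin filaments, averaged 9.13, 7.78, 7.82 and 8.65 log2 CPM in control against 6.22, 6.51, 6.71 and 5.63 in treated calves. The diets of ENAH were separate in the averages and in round muscle but overlapped in sirloin muscle, and the difference was -2.08 ± 0.34 (SE; adjusted p = 0.253). CD44, a hyaluronan receptor, differed by -1.33 ± 0.28 (SE; adjusted p = 0.702), with -2.10 in round and -0.55 in sirloin muscle. EMP1, a membrane protein, differed by -0.95 ± 0.22 (SE), with -1.53 in round and -0.38 in sirloin muscle. CNN1, a calponin typical of smooth muscle, averaged 4.95, 3.35, 4.10 and 4.60 in control against 2.78, 2.84, 4.32 and 2.63 in treated calves, with treated 3 inside the control range. CNN1 differed by -1.87 in round and -0.35 in sirloin muscle. All 31 gene lists were drawn up with earlier results of the same libraries known, so their counts are no independent evidence of a direction.

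Heat shock proteins and chaperones were mostly below 0, with 18 of 21 members. HSPB8, CRYAB, HSPA5 and HSPB1 were lower at an unadjusted p under 0.05, and the median was -0.36. CRYAB, the small heat shock protein that binds desmin, averaged 11.83, 11.97, 11.39 and 11.45 log2 CPM in control against 11.30, 10.01, 11.31 and 10.34 in treated calves. Its lowest control calf was just above its highest treated calf. HSPA5, the chaperone of the endoplasmic reticulum, was highest in control 4 at 10.20, whereas the other control calves ran from 7.26 to 8.12 and the treated calves from 6.48 to 7.28. Its difference was -1.31, and -0.67 without control 4.

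In the calcineurin, NFAT and p38 list 2 of 17 (11.8%) were lower at an unadjusted p under 0.05, against 1.96% of all genes. They were NFATC2 and MAP2K6, a kinase that activates p38, which differed by -0.85 ± 0.27 (SE). Of 13 atrophy ligases and FOXO factors, 3 (23.1%) were lower at the same threshold. The list as a whole was split, with 7 members below 0 and 6 above 0 and a median of -0.074. That median was 0.073 on the TPM scale and -0.54 without control 2. RNF115 and ASB5, which are among the 3 lower genes, are also in the paper's list of changed genes in round muscle. RNF115, a ubiquitin ligase, averaged 6.08, 5.32, 5.95 and 5.69 in control against 4.84, 4.61, 5.12 and 4.66 in treated calves. Its difference was -0.95 ± 0.21 (SE; adjusted p = 0.824), with -1.54 in round and -0.36 in sirloin muscle. ASB5 and NEDD4 differed by -1.47 and -0.78, and in each control 2 lay below at least 1 treated calf. In the glycolysis and glycogen list the hexokinase HK2 was lower by 0.64 at an unadjusted p under 0.05, and 19 of 23 members were below 0 with a median of -0.26. In the glucocorticoid list 1 of 15 was lower at that threshold, the receptor gene NR3C1, by 0.44. Most of this list went the other way, with 10 members above 0 and a median of 0.26. That median was -0.016 in round and 0.42 in sirloin muscle, and -0.099 without control 2.

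Of 14 slow and 14 fast fibre genes, 0 passed an unadjusted p under 0.05. The medians were 0.045 and -0.35, the first being -0.048 without control 2 and 0.155 with edgeR. The slow median was 0.44 in round and -0.28 in sirloin muscle. Of the 14 fast genes, 13 lay below 0. MYH1, the fast myosin of type IIx fibres, had the largest difference of them at -0.92 ± 0.53 (SE). It averaged 12.84, 13.30, 14.01 and 13.52 in control against 14.01, 11.53, 11.56 and 12.88 in treated calves, so the diets overlapped. The slow myosin MYH7 differed by 0.22 and its light chain MYL2 by 0.27, each above 0 in round and below 0 in sirloin muscle, and the fast myosin MYH2 by -0.07. The 10 embryonic and neonatal muscle genes and the 15 myogenic regulators also had 0 members past an unadjusted p under 0.05, with medians of 0.098 and -0.099. The first was -0.062 without control 2 and -0.034 with edgeR, and the second was 0.047 on the TPM scale. Their most abundant members, the long noncoding RNA H19 and the myosin-binding protein gene MYBPC1 in the former and MEF2C and MYF6 in the latter, differed by 0.09, -0.08, -0.38 and 0.06. In the integrated stress response and amino acid list of 29, the transporter SLC1A5 was lower by 0.62 and the proline enzyme PYCR1 higher by 0.60. SLC1A5 differed by -1.39 in round and 0.15 in sirloin muscle.

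Of the 81 cytosolic ribosomal proteins 76 lay above 0, beside 7964 of 15638 over all genes, with 0 members past an unadjusted p under 0.05. Their median was 0.13, or 0.029 without control 2 and 0.288 on the TPM scale. It was 0.025 in round and 0.24 in sirloin muscle, and the abundant RPLP1 and RPL4 differed by 0.19 and 0.09. Of 78 mitochondrial ribosomal proteins 1 was lower, MRPS35 by 0.59, with a list median of -0.057 that was 0.094 on the TPM scale. Of 42 proteasome subunits and 19 circadian clock genes, 0 passed, with medians of 0.0062 and -0.11, which were 0.154 and 0.041 on the TPM scale. PSMD2 and PSME4 differed by 0.05 and 0.08, and the clock genes PER1 and RORA by 0.48 and -0.45. With a calf left out PER1 was as low as 0.28 (without treated 2) and RORA came as near 0 as -0.13 (without control 3).

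**Figure D4:**
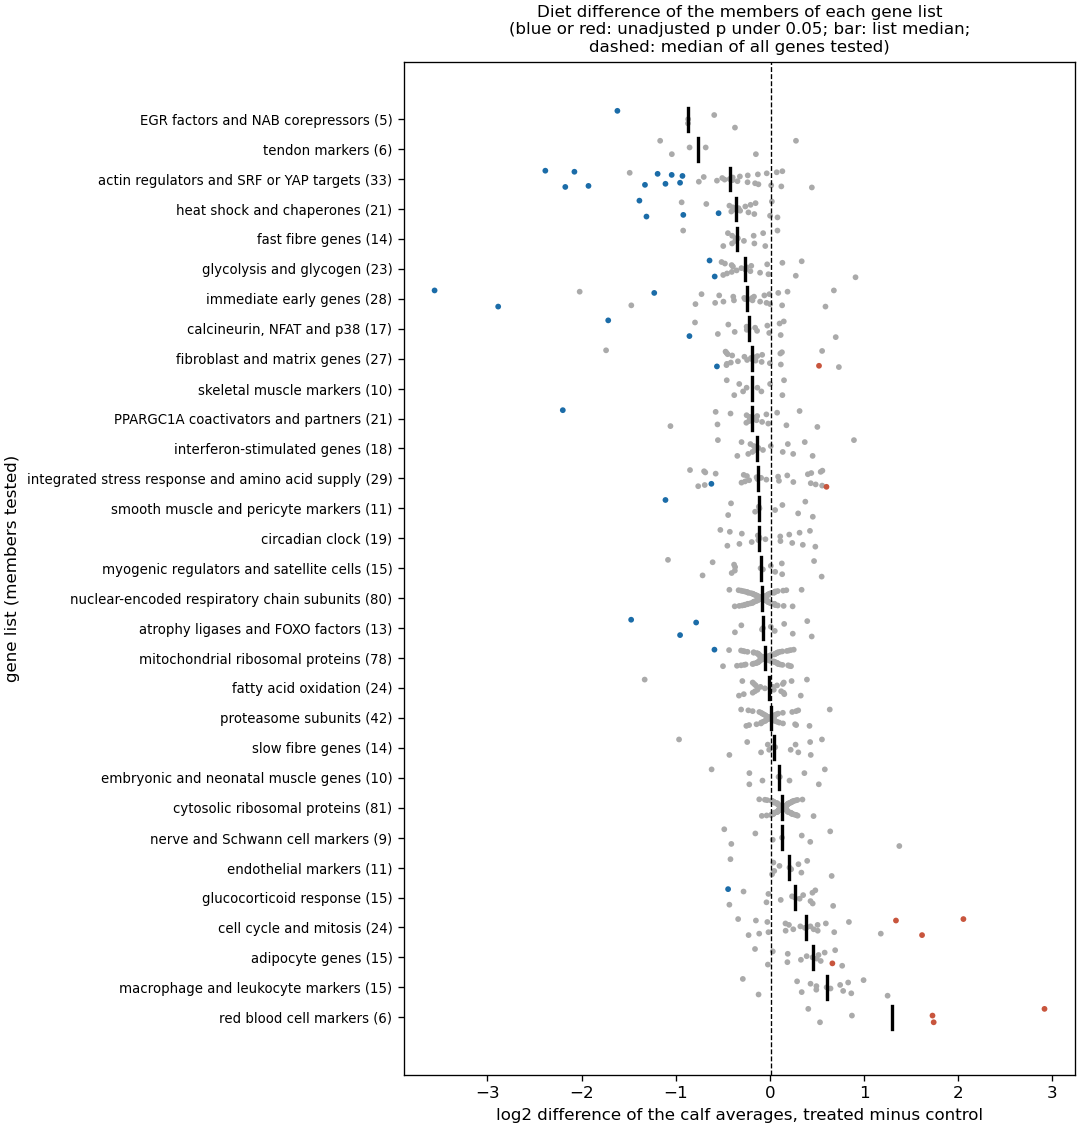
Treated minus control log2 difference of the calf averages (horizontal axis) for each tested member of 31 gene lists (vertical axis, number tested in brackets), with coloured points for an unadjusted p under 0.05, black bars for list medians and a dashed line for the median of all genes tested. The actin regulators and SRF or YAP targets hold 10 blue points, and the red blood cell markers have a median of 1.30, which was 0.71 without control 2.

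Markers of other cells were compared in the same averages. In bulk tissue, fewer cells of a type and less RNA per cell cannot be told apart. Red blood cell markers had a median of 1.30, and all 6 tested lay above 0. Without control 2 the median was 0.71, below the 0.86 of the macrophage and leukocyte markers. HBG, a globin gene, averaged -1.18, -2.97, -1.50 and -4.23 log2 CPM in control against 0.01, 1.89, -0.78 and 0.66 in treated calves, and it belonged to the 15 higher genes that separated in both muscles. HBA and HBA1, the alpha globin copies whose reads cannot be told apart with certainty, differed by 1.74 and 1.73, and control 1 lay within or near the treated range for each. The sum of all 12 red blood cell markers was 2.52 to 7.82 CPM in control against 8.35 to 12.6 CPM in treated calves, and HBE1 and SLC4A1 had 0 counts in every library. These sums are small, and the part of blood content in the other differences was not tested. The paper's methods name a library kit that depletes globin RNA, and how far it was depleted in each library is not given.

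Adipocyte genes had a median of 0.45, with 13 of 15 above 0. LIPE, the hormone-sensitive lipase, was the only member past an unadjusted p under 0.05, by 0.66 ± 0.25 (SE). The sum of the 18 listed genes was 791 to 967 CPM in control against 928 to 2556 CPM in treated calves, where treated 4 was the highest. LIPE reached 217 CPM in the sirloin library of treated 4 and 7.73 CPM in its round library, so a single muscle carried that calf. On summed counts, which weight a calf's richer library more, the list median was 1.17 by edgeR.

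Fibroblast and matrix genes had 1 lower member, TGFB1, by 0.56, and 1 higher, MMP2, by 0.52, of 27 tested. Their median was -0.19, and without control 2 it was 0.24. The 6 tendon markers had a median of -0.77, or -0.115 without control 2, and 0 members past an unadjusted p under 0.05, with THBS4 at -0.15 and FMOD at -0.68. Cell cycle genes were mostly above 0, with 18 of 24 and a median of 0.38 that was 0.14 on the TPM scale. BUB1, CCNB2 and KIF20A, which act in mitosis, were higher by 2.05, 1.62 and 1.34, all at or below 0.83 CPM in any library. CCNB2 held 0 to 7 reads in control libraries and passed the filter for expressed genes through treated libraries alone. Its difference could therefore only come out higher. The sums of all 24 cell cycle genes overlapped, at 54.7 to 68.8 CPM in control against 54.3 to 70.3 CPM in treated calves.

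The macrophage and leukocyte, endothelial, nerve and Schwann cell, and interferon-stimulated lists had 0 members past an unadjusted p under 0.05, with medians of 0.60, 0.21, 0.13 and -0.14. The macrophage and leukocyte median was 0.86, the nerve and Schwann cell median 0.39 and the interferon median 0.017 without control 2. With a prior count of 0.5 the nerve and Schwann cell median was 0.031, and the interferon median was 0.013 on the TPM scale and 0.016 with edgeR. Among their most abundant members the differences were 0.60 (CD163) and -0.29 (MRC1), 0.05 (PECAM1) and 0.23 (FLT1), -0.49 (PMP22) and -0.16 (S100B), and 0.19 (STAT2). CD163 was at 0.10 without treated 2. Of 11 smooth muscle and pericyte markers CNN1 alone was lower, and that list's median was -0.11, or 0.032 on the TPM scale and 0.038 without control 2. The 10 skeletal muscle markers had a median of -0.19, with 0.12 in round and -0.45 in sirloin muscle, and ACTA1 and TTN differed by -0.13 and -0.25.

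**Figure D5:**
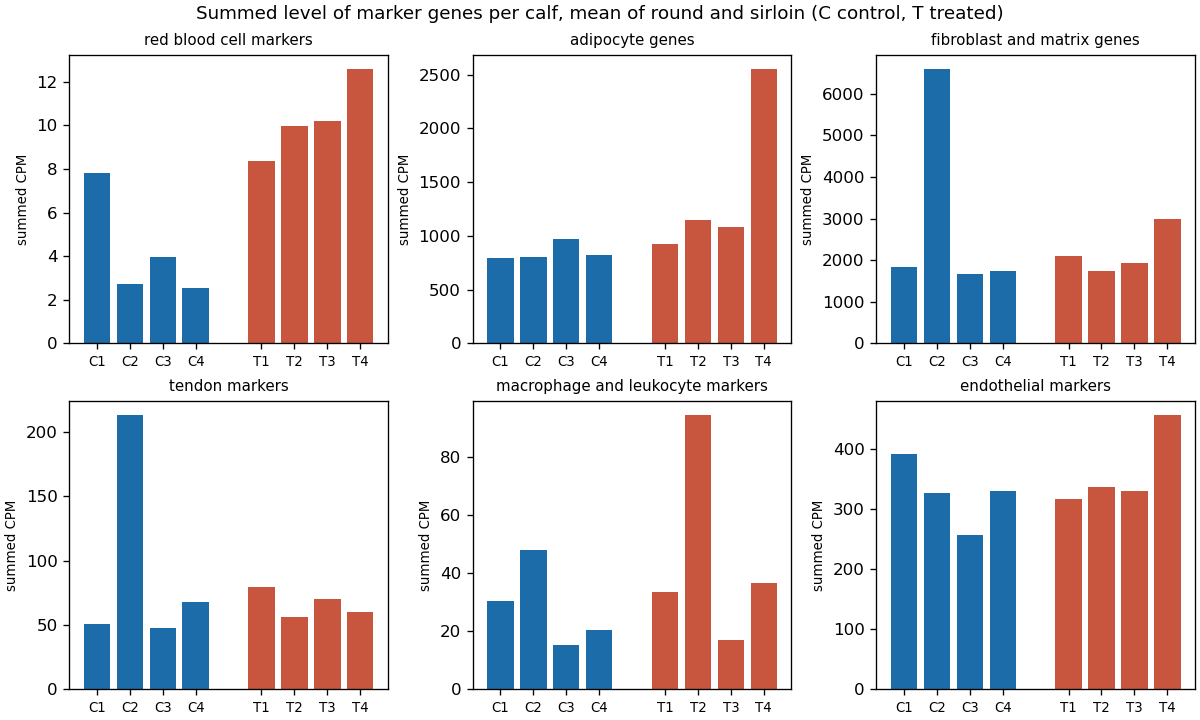
Summed CPM (vertical axis) of 6 marker lists in each calf, as the mean of its round and sirloin libraries, with blue bars for control calves C1 to C4 and red bars for treated calves T1 to T4. Red blood cell markers are at most 7.82 CPM in control and at least 8.35 CPM in treated calves, and matrix and tendon markers peak in control 2 at 6601 and 213 CPM.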

How the data were processed

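RNA of the round and sirloin muscles of 8 calves was sequenced. For 34109 genes the authors deposited unnormalized read counts, and TPM. The submitters' processing notes list FastQC, Trimmomatic, STAR, featureCounts, DESeq2 and the build ARS-UCD1.2 without their roles, and the labels state poly(A) selection. The paper's methods instead name HISAT2, Bowtie2 and StringTie and a kit that depletes ribosomal and globin RNA, and the conflict is unresolved. Whether counting used strand is not given in the sources used here. The deposited TPM values served as an alternative scale only. The deposited tables of fold changes and p-values were not used.

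Genes passing filterByExpr of edgeR 4.0.16 over 4 groups (15638) were scaled by TMM over 16 libraries, and log2 CPM (prior count 2) was averaged over the muscles of a calf. A gene with few reads in control libraries could pass this filter through treated libraries alone, and the reverse, which fixes the direction of its difference. Since averages are not counts, limma 3.58.1 (lmFit, eBayes with trend) was the main test, two-sided. edgeR's quasi-likelihood test and DESeq2 1.42.0 were run on counts summed per calf. The replicate spread is that between calves. A calf's muscles correlated at 0.340 to 0.701 after group means were removed, and same-numbered calves of the 2 diets at -0.12 to 0.27.

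Gene IDs were given symbols from an ARS-UCD2.0 gene table, of which no coordinate was used (90.2% matched). On simulated data with the averages, 82% of genes changed by 2 and 23% of those changed by 1 on the log2 scale were recovered. The changed genes were drawn from those with a mean above 1 CPM, so this recovery does not cover genes of lower level. Genes were named if they passed the adjusted threshold, if their diets were separate in both muscles (15 lower and 15 higher by p), if they led a list (up to 4 past an unadjusted p of 0.05, else the 2 most abundant), or if the study gives them as changed in both muscles or measured by qPCR. The genes, lists and tests were chosen with earlier results of these data known. Promoter sequences were not used here, and a few members of the lists are left unnamed.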

Additional observations from a re-analysis of the deposited data

Results flagged for a closer look

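Of 200 groups of 4 calves tested for a calf far from the other 3 (Dixon's test), 14 were marked, and chance marks about 1 group in 20. Among calf averages of genes these were LOC781412 in treated 1 (2.18 log2 CPM), REP15 in control 1 (0.52), MYADM in treated 4 (5.64), CNN1 in treated 3 (4.32), PYCR1 in treated 3 (5.66), HSPB1 in treated 4 (9.01) and ACTA1 in treated 1 (14.81). NEDD4 (4.08) was lowest in control 2, the calf that also had the lowest PPARGC1A of the control calves.

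Among summed marker levels, control 2 stood apart for fibroblast and matrix genes (6601 CPM) and tendon markers (213 CPM). Treated 4 stood apart for adipocyte genes (2556 CPM) and endothelial markers (456 CPM). Adipocyte genes also stood apart in control 3 (967 CPM), and interferon-stimulated genes in treated 2 (511 CPM, the other treated calves being at 65.7 to 109 CPM).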

How the results depend on the processing

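The count of genes past the adjusted threshold was 1 with edgeR (LOC781412), voom (NAB2) or every gene with at least 1 count, 38 with DESeq2, 0 with a replicate block, 5 in round libraries alone, and 1 to 3 with a calf left out; other scalings left it at 2. DESeq2 also called 21 genes in simulated data with none changed. Genes at an unadjusted p under 0.05 numbered 782 with every gene with at least 1 count, and 348 to 920 with a calf left out (920 without control 2). Same-numbered calves share only a number, and under the replicate block 667 genes had an unadjusted p under 0.05. Genes separate in both muscles numbered 50 to 139 with a calf left out, fewer calves separating more easily. The total count by diet differed by -8.02 to 10.6 M with a calf left out. The muscle difference called 1 gene with a prior count of 0.5 and 0 under the other settings. LOC781412 (adjusted p = 0.172) and FOSL1 (0.268) missed the threshold under the block. Causes were not tested.

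None of the following differences passed the adjusted threshold, and all changed sign on the log2 scale. In round libraries alone the values were 0.098 for ACADVL, 0.14 for ACTA1, 0.090 for ATP5F1B, 0.17 for MYBPC1, -0.084 for MYF6, 0.11 for MYH2 and -0.056 for PECAM1. In sirloin libraries alone the values were -0.32 for H19, -0.34 for MYH7, -0.12 for MYL2 and 0.15 for SLC1A5. On log2(TPM + 0.5) the values were 0.015 for ACTA1, 0.011 for ATP5F1B, 0.062 for MYBPC1 and 0.076 for MYH2. With edgeR the values were -0.29 for H19 and -0.078 for MYF6. With DESeq2 the values were -0.28 for H19 and -0.074 for MYF6. With a calf left out they ran from -0.29 to 0.015 for ACADVL, from -0.22 to 0.030 for ACTA1, from -0.21 to 0.036 for ATP5F1B, from -0.13 to 0.51 for FLT1, from -1.10 to 0.10 for FMOD, from -0.20 to 0.57 for H19, from -0.86 to 0.58 for MRC1, from -0.24 to 0.055 for MYBPC1, from -0.43 to 0.43 for MYF6, from -0.32 to 0.28 for MYH2, from -1.04 to 0.27 for PDK4, from -0.066 to 0.21 for PSMD2, from -0.16 to 0.35 for PSME4, from -0.012 to 0.38 for RPLP1, from -0.31 to 0.047 for S100B, from -0.0043 to 0.41 for STAT2 and from -0.35 to 0.18 for THBS4.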
